A study of Mus musculus with 2 samples.

Results

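DNase I footprints that recurred in both libraries and lay in open regions away from gene starts were examined here. A footprint is a short stretch inside open chromatin in which DNase I, a nuclease that cuts accessible DNA, made fewer cuts than in its surroundings. Members were footprints of replicate 1 and replicate 2 that overlapped by at least 50% of the shorter one and lay within a region covered by overlapping peaks of both libraries, with every annotated start of protein-coding genes and of long noncoding RNAs more than 500 bp away. The rule found 28830 members among 56622 footprints shared in all regions, and the other 27792 lay in regions at gene starts. Footprints deposited for replicate 1 numbered 236942 and those for replicate 2 numbered 159538. The libraries came from hippocampus of female B6CASTF1/J mice, hybrids of C57BL/6J and CAST/EiJ, aged 25 days. The labels name the tissue as a layer of hippocampus without saying which layer. They form 1 group of 2 biological replicates with no treatment and no control group, and the labels give both the same donor entry, so differences between the libraries may partly be technical.

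Distal open regions are mostly enhancers and insulators, where sequence-specific factors hold the DNA open and shield the bases they touch from the nuclease. CTCF, a zinc-finger protein that binds a long asymmetric sequence, stops the cohesin ring and thereby anchors chromatin loops. In neurons of the hippocampus, NeuroD and related basic helix-loop-helix factors bind E-boxes, and NFI, RFX and CREB family factors act beside them. A footprint shows that bases were cut less than those around them, and it does not name a protein that covered them. Any dependence of cutting on the sequence itself was not modelled here.

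The sequences below are shown because each holds the motif of a group described later, in the distal region with the highest mean signal rank over both libraries among regions with such a member. For CTCF and RFX the regions next in rank are added, and the CAGATG and RFX members without a CTCF-like sequence were added after values had been seen. Each is the RefSeq GRCm38 (mm10) reference sequence of the member and 8 bases on either side, or 5 bases where the member lies in an exon. Capitals mark the motif, and the strand is the one that reads the motif 5′ to 3′. The animals carry a CAST genome as well, whose letters were not read here. The CAGATG of the Vps37c sequence lies wholly in the added bases, outside the footprints of both libraries, and the NRF1 motif runs past the end of its member.
CTCF consensus, chr8:20424857-20424896, minus strand, intergenic: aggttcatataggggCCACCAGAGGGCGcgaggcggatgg
CTCF consensus, chr8:20122169-20122228, plus strand, intergenic: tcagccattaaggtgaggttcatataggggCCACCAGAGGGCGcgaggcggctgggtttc
CTCF consensus, chr4:151141702-151141764, minus strand, intron of Camta1: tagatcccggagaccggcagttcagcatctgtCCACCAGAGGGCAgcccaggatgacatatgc
E-box CAGATG in the same Camta1 member, plus strand: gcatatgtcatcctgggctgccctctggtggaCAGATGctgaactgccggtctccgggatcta
E-box CAGATG without a CTCF-like sequence, chr19:10709594-10709639, plus strand, intron of Vps37c: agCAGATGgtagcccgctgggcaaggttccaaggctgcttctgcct
RFX, chr12:99392110-99392183, plus strand, intron of Foxn3: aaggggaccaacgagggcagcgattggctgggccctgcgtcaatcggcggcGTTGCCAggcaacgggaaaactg
RFX, chr8:84811143-84811171, plus strand, intergenic, 10.8 kb from a start of Nfix: ggcgggcgcGTTGCCAtggtgccggccgg
NRF1, chr8:94704086-94704147, plus strand, intergenic, 7.82 kb from a start of Pllp: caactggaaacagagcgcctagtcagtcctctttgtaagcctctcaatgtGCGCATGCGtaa
CRE, chr6:86472238-86472266, plus strand, exon of C87436: ccgcgaggTGACGTCAccacgctgccgcc
EGR, chr6:86472440-86472468, plus strand, exon of the antisense RNA A430078I02Rik: gcgagctcGCGTGGGCGgggctggggacg
Sp, chr19:5803719-5803770, minus strand, intergenic, 1.05 kb from a start of Malat1: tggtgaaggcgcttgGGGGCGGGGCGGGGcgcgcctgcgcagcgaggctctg
YY1, with a CTCF-like sequence, chr8:121113481-121113543, plus strand, intron of Gm20388: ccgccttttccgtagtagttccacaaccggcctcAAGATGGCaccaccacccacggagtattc

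The strongest of these regions, that of the first CTCF sequence, had a deposited peak signal of 24.5 in replicate 1 and 9.18 in replicate 2 and held 3 members. The second CTCF sequence, with signals of 22.6 and 8.59, is largely the same letters on the same chromosome, so reads of either copy could have been placed at the other. The third, in Camta1, had signals of 22.3 and 4.01, and its footprint was 47 bp wide in each library with the same first and last base. The Foxn3 sequence had 58 bp under footprints in replicate 1 and 47 bp in replicate 2, in a region with signals of 13.0 and 3.36. The CRE and EGR members lay in 1 region of 6 members with signals of 11.7 and 4.70. The midpoint of each lies within both C87436 and A430078I02Rik. Exons of all genes were pooled, so the gene named with each sequence may not be the one whose exon holds it. Footprint widths at the NRF1 member were 45 bp in replicate 1 and 44 bp in replicate 2.

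The files used do not give sequencing depth, so it is unknown, and the scale of the deposited peak signal is not stated, so levels of the libraries are set side by side as deposited. The tissue label was compared with gene starts at which both libraries had a peak within 500 bp, which 11890 of 21938 protein-coding genes (54.2%) had. All 19 circadian clock genes had such a peak, as did 14 of 16 excitatory neuron markers, 8 of 12 granule cell markers, 7 of 12 pyramidal cell markers and 4 of 18 GABAergic interneuron markers. Of glial and other markers, 6 of 15 for astrocytes, 3 of 15 for oligodendrocytes, 4 of 7 for their precursors, 2 of 12 for microglia, 0 of 12 for vessels and 0 of 8 for hepatocytes had one. A mixed tissue gives 1 profile, so fewer cells of a type and weaker opening in each cell cannot be told apart.

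Members lay in 17670 of the 21815 distal regions (81.0%), and most such regions held few of them. A single member was found in 9418 regions, 2 in 5846, 3 in 2011, 4 in 321 and 5 or more in 74, with 11 at most. Members covered 15.3% of the bases of distal regions. Signal rose with the number of members in both libraries. In replicate 1 the median signal was 0.875 in regions without a member, 1.81 with 1, 3.35 with 2, 4.74 with 3, 5.47 with 4 and 5.65 with 5 or more. In replicate 2 the same medians were 0.570, 0.795, 1.09, 1.38, 1.65 and 2.32. Among the weakest 10% of regions 39.2% had a member when ranked by replicate 1 and 37.0% when ranked by replicate 2, and in the strongest 10% 99% had one when ranked by replicate 2. The quartile ranges of neighbouring classes overlapped. A footprint can be found only where cuts are many, so the number of members and the signal rest on the same reads and are not independent.

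**Figure D1:**
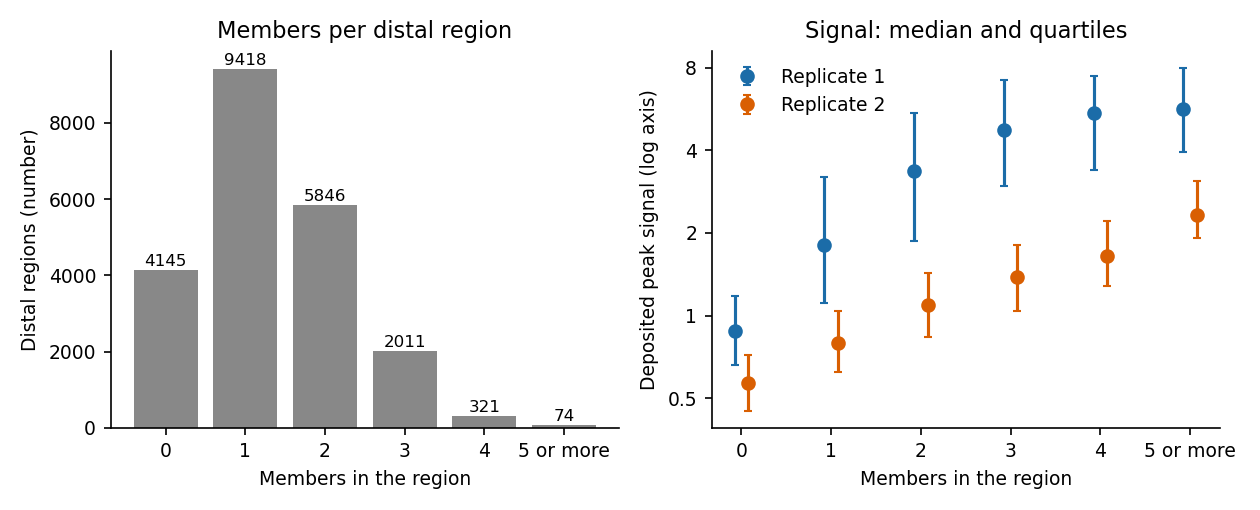
Left, number of distal regions by the number of members they hold. Right, deposited peak signal (log axis) of these regions by number of members, with the median as a point and the quartiles as a bar for each library; the medians rise from 0.875 to 5.65 in replicate 1 and from 0.570 to 2.32 in replicate 2.

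Members were wider than the footprints that had no partner. The stretch covered by either library had a median width of 27 bp (quartiles 17 and 33 bp), against 19 bp for shared footprints at gene starts. Member footprints had a median width of 26 bp in replicate 1 and 13 bp in replicate 2, and footprints of distal regions without a partner 10 bp and 8 bp. Footprints of the smallest width, 7 bp, made up 5.88% of member footprints and 27.6% of those without a partner in replicate 1, and 17.4% and 43.2% in replicate 2. Wider footprints have more room to overlap, so part of this difference follows from the rule.

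The libraries differed in how finely they resolved a member. Of the footprints inside distal regions, 43.8% in replicate 1 and 65.9% in replicate 2 belonged to a member, leaving 37428 and 16890 without a partner. Members with 1 footprint from each library numbered 24817 (86.1%). Among these, the footprint of replicate 1 was the wider in 76.4%, that of replicate 2 lay wholly inside it in 66.9%, and both ends fell within 2 bp of each other in 24.9%. Widths had a Spearman rank correlation of 0.613 across these members, which share sequence and region. A footprint of replicate 1 spanned 2 or more of replicate 2 in 3690 members, and the reverse was seen in 313. Near the limits of the rule, 1104 overlapping pairs shared 50 to under 60% of the shorter footprint and 752 shared 40 to under 50%. The 385 regions up to 100 bp beyond the distance limit held 379 members, and the 479 regions up to 100 bp short of it held 438 shared footprints.

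Members were arranged in a regular way inside the regions, whose median width was 200 bp. Of all members, 47.0% had their centre under 20 bp from the region's centre, 22.8% at 20 to under 50 bp and 22.8% at 50 to under 80 bp. Within 0.2 of the distance from centre to edge lay 47.9% of members, but 28.8% of all footprints of replicate 1 and 39.2% of those of replicate 2. Neighbouring members in a region, 11160 pairs, fell into a pair of spacings. Centres were 20 to under 30 bp apart in 1986 pairs and 50 to under 80 bp apart in 7224 (64.7%), with 786 pairs in the range between. The most frequent 10 bp class, 60 to under 70 bp, held 3716 pairs. Both members of a pair lie wholly inside the region, so its width limits larger spacings. Exactly 1 of the pair held a CTCF-like sequence, defined below, in 80.2% of the pairs at 20 to under 30 bp. The share was 69.6% at 50 to under 80 bp, a class that holds 64.7% of pairs and so weighs most in the share over all pairs. It was 33.0% between these ranges, 25.8% under 20 bp and 29.8% at 80 bp or more.

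Members near the centre and toward the edges held different sequences. A CTCF-like sequence lay in 67.4% of members under 20 bp from the centre and in 5.65% of those at 50 to under 80 bp. The E-box CAGATG lay in 9.83% and 3.99% of these classes, and any of the 44 motifs searched in 54.8% and 29.0%. Central members were also wider, with a median of 31 bp against 22 bp, and were 58.7% G or C against 53.3%. The 2142 members 80 bp or more from the centre turned back from this order, with 61.1% G or C, CAGATG in 6.68%, a CTCF-like sequence in 10.6% and a median width of 17 bp. In replicate 2 the flanking members were narrow, with a median footprint of 9 bp against 24 bp at the centre, and in replicate 1 these medians were 21 and 30 bp.

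**Figure D2:**
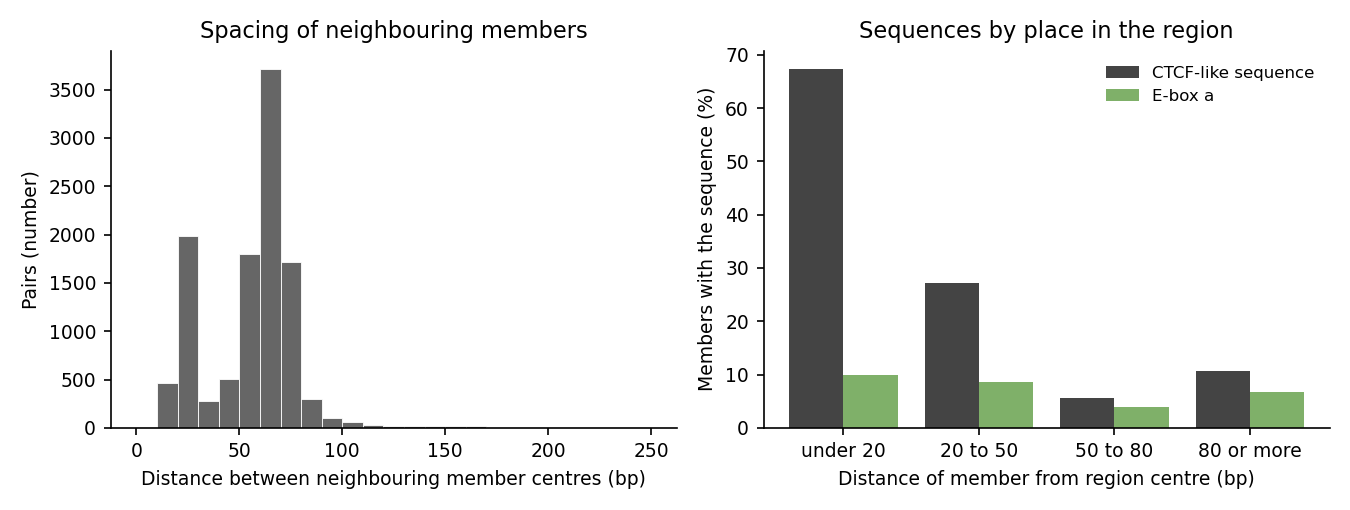
Left, number of neighbouring member pairs by the distance between their centres in 10 bp classes, with peaks at 20 to 30 bp (1986 pairs) and 60 to 70 bp (3716 pairs). Right, percentage of members with a CTCF-like sequence and with the E-box CAGATG (E-box a), by distance of the member from the region's centre; the CTCF-like share falls from 67.4% to 5.65% between the first and the third class.

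The CTCF consensus was the most frequent long motif. It was searched by name as a sequence of 13 bases on both strands, and 3512 members (12.2%) held it without a mismatch. Allowing 1 mismatch gave 8638 members (30%), and allowing 2, called CTCF-like here, gave 11524 (40%). For comparison, the widened member was shifted by 40 to 200 bp within its region to a window touching no footprint. This was possible for 13348 members (46.3%). The shift runs from start to start, so a window can adjoin its member and share some of the bases added by widening. Among those, 792 members and 1 window held the exact consensus, and 23.7% of members and 1.55% of windows were CTCF-like. The consensus lay in 12% of member footprints of replicate 1 and 10.6% of those of replicate 2. In footprints without a partner it lay in 0.323% and 0.118%, but these were narrower, which leaves less room for 13 bases. At gene starts, 1.09% of shared footprints held it. Its 3512 members lay on the plus strand in 1691 cases and on the minus strand in 1821.

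The footprint stood at an asymmetric place on the CTCF consensus, and its ends varied between members. In replicate 1 it began a median of 6 bases before the match (quartiles 5 and 7) and ended 12 bases after it (10 and 13). In replicate 2 it began 5 bases before (4 and 6) and ended 9 bases after (5 and 11). The first edge was thus the sharper of the ends in both libraries: it lay within 1 base of its most frequent place in 66.3% and 57.2% of members, against 44.8% and 23.3% for the last edge. Some footprints reached farther out: the position 11 bases before the match was covered in 18.4% of members in replicate 1 and 15.8% in replicate 2. In the 3512 members, the bases outside the match were uneven too. Counted from 0 at the first matched base, G stood in 37.1% at position -17 and 38.2% at position -16, T in 48.9% at position -12 and C in 40.4% at position -10. After the match, A stood in 43.1% at position 15 and G in 42.7% at position 18.

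Other members in regions of a CTCF match were concentrated at certain distances from it, and these differed between the sides. Members lie wholly inside a region, and regions with an exact match had a median width of 200 bp, which limits larger distances. Of 2620 such members, 1254 lay before the match and 1366 after it. Before the match, 400 had their centre 20 to 30 bp from the centre of the match, 39 at 40 to 50 bp, 227 at 60 to 70 bp and 198 at 70 to 80 bp. After the match, 7 lay at 10 to 20 bp, 2 at 20 to 30 bp and 5 at 30 to 40 bp, and 756 lay at 60 to 70 bp. The median distance was 52.5 bp before the match (quartiles 21.5 and 68.9) and 65.5 bp after it (61.0 and 70.0). The match was covered by the only member of its region in 45.4% of cases, whereas 24.0% of members without a CTCF-like sequence were alone.

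**Figure D3:**
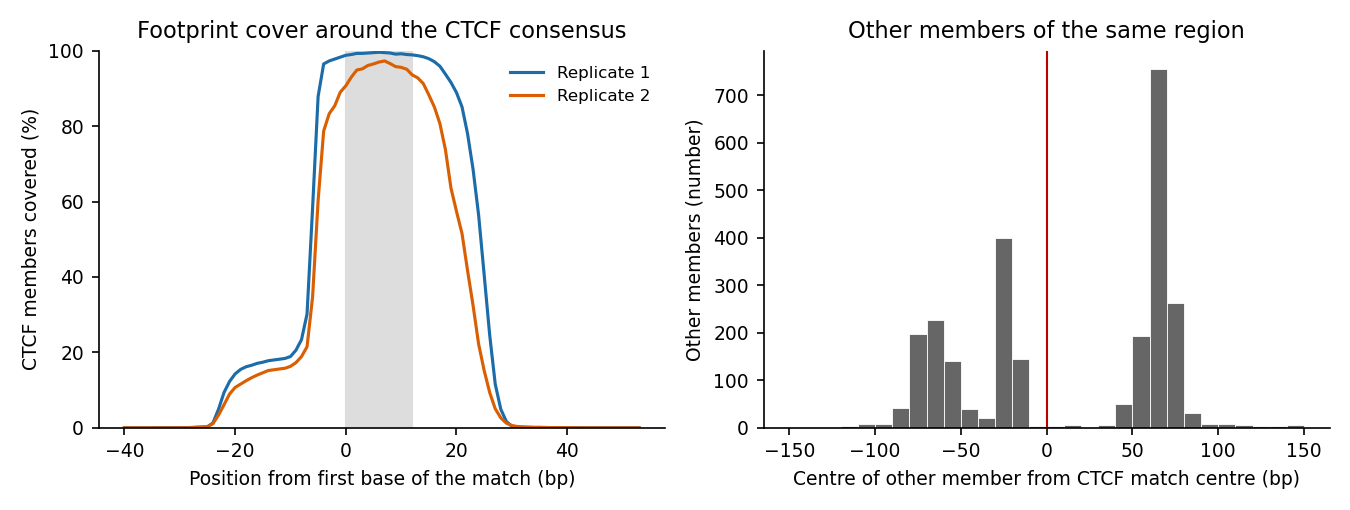
Left, percentage of the 3512 CTCF members in which each position is covered by a footprint, by library; the grey band is the matched sequence, and the left edge is steep in both libraries. Right, number of other members of the same region by the distance of their centre from the centre of the match in 10 bp classes, along its strand; the tallest class is 60 to 70 bp after the match (756).

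Region signal and its ratio between libraries moved with the CTCF sequence. Regions with an exact match had a median signal of 4.13 in replicate 1 and 1.08 in replicate 2, and regions whose members held no CTCF-like sequence had 1.45 and 0.833. The median log2 ratio of replicate 1 over replicate 2 was 1.93 with an exact match, 1.81 with a CTCF-like sequence and 0.825 without. CTCF regions thus stood out more in replicate 1 than in replicate 2, and the part of this difference in the shares above was not tested. The deposited cut-rate FDR at member centres had a median of 26.3 in replicate 1 and 8.86 in replicate 2 for CTCF members, as -log10 values, and of 15.1 and 7.5 for members without a CTCF-like sequence.

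Neighbouring CTCF matches along the chromosome showed an orientation that changed with distance, mainly among pairs under 100 kb apart. Of 171 pairs under 10 kb apart, 59.6% pointed the same way, 32.2% pointed away from each other and 8.19% toward each other. Of 687 pairs 10 to 100 kb apart, 18.8% pointed toward each other, and of 1917 pairs 100 kb to 1 Mb apart 28.7%. At 1 Mb or more, 30% of 717 pairs did so. Pointing away fell over the same classes from 34.4% at 10 to 100 kb to 24.2% at 100 kb to 1 Mb and 21.2% at 1 Mb or more. In these last classes 47.1% and 48.8% pointed the same way. No share expected for strands drawn at random was computed, so a preference for pointing toward each other was not tested. Only exact matches in members were used, so a pair may have other CTCF sites between its matches.

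Beyond CTCF, 31 motifs occurred in at least 50 members, and 16 of these were more frequent in members than in windows of the same regions. Another 14 were less frequent, and the Klf sequence CCACACCC was found equally often in both (41 members and 41 windows). Intervals given with ratios are exact 95% binomial intervals on the counts; they cover counting error only and treat members as independent, which members of the same region are not. The highest ratio was that of NRF1, a factor of growth and mitochondrial gene promoters, whose GCGCATGCG lay in 69 members and 2 windows (ratio 34.5, interval 9.20 to 291). The CRE TGACGTCA, bound by CREB, which carries activity signals to the nucleus, lay in 48 members and 5 windows (ratio 9.60, 3.84 to 30.9). GCGNGGGCG, bound by EGR factors, lay in 81 and 10 (8.10, 4.19 to 17.5), and the Sp sequence GGGGCGGGG in 104 and 22 (4.73, 2.96 to 7.87). All these hold CpG, and they were more frequent still in shared footprints at gene starts, at 1.84%, 1.66%, 2.87% and 6.80%, against 0.295%, 0.236%, 0.413% and 0.569% of all members. These ratios rest on few windows and moved with the setting. NRF1 had 10.9 in all footprints of replicate 1 and 89.0 in those of replicate 2, and CRE 4.06 and 7.40. CRE had 3.82 with 16 bp of widening, Sp 2.92, and EGR 18 with no widening.

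Among motifs with no CpG, the RFX sequence GTTGCCA lay in 290 members and 79 windows (ratio 3.67, interval 2.85 to 4.77). RFX factors bind the X-box of genes for cilia and other targets. When members with a CTCF-like sequence were left out the ratio was 4.24 (246 and 58). The YY1 sequence AAGATGGC lay in 71 members and 21 windows (3.38, 2.05 to 5.79), in 31 and 17 without CTCF-like members (1.82), with a ratio of 1.62 at 16 bp of widening. For TTGGCA, the core of the palindrome bound by NFI factors, the counts were 734 and 370 (1.98, 1.75 to 2.25), and 647 and 277 (2.34) without CTCF-like members. The full NFI palindrome, TTGGC and GCCAA with 5 bases between, lay in 12 members and 0 windows. The ZIC sequence CAGCAGG had a ratio of 2.24, which was 1.05 (155 and 147) once CTCF-like members were left out. The CTCF consensus itself can contain CAGCAGG, so these counts were not separate from those of CTCF.

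E-boxes were frequent, and they differed by their central bases. CAGATG, a form bound by NeuroD and other proneural factors, lay in 2304 members (7.99%), fewer than the CTCF consensus and more than any other of the 44 motifs. In the compared set it lay in 1302 members and 423 windows (ratio 3.08, interval 2.76 to 3.44), and without CTCF-like members in 928 and 310 (2.99). The ratio was 2.39 for CAGGTG, 2.18 for CATATG, 1.81 for CAGCTG and 1.80 for CACGTG, the form bound by clock and MYC-type factors. For CAGGTG it was 1.58 without CTCF-like members, and the CTCF consensus can hold CAGGTG and CAGATG. Within members that were not CTCF-like, the ratio differed with the base after CAGATG, at 5.19 for CAGATGG (602 and 116), 2.15 for CAGATGC, 1.94 for CAGATGT and 1.12 for CAGATGA (65 and 58). Before the E-box, CCAGATG had a ratio of 4.25 and TCAGATG of 1.00 (54 and 54). The 8-base word with the largest excess in these members was ACAGATGG, with its reverse complement in 217 members and 39 windows. The words ATGGCAAC (147 and 17) and CCATGGCA (149 and 20), which overlap the RFX sequence, were among the 10 highest, as were 3 words of C and T, CCTCCCCC, CCCTCCCC and CCCCTCCC.

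Several motifs were scarcer in members than beside them. AACAATG, bound by SOX factors, had the lowest ratio at 0.387 (29 members and 75 windows), followed by the Forkhead sequence TGTTTAC at 0.397 (23 and 58), the GATA sequence AGATAA at 0.404 (65 and 161), the homeodomain sequence TAATTA at 0.406 (39 and 96) and the OTX sequence TAATCC at 0.452 (56 and 124). The AP-1 site TGANTCA, bound by Fos and Jun, lay in 132 members and 171 windows (0.772, 0.610 to 0.974). This ratio depended on the widening: it was 0.402 with none and 1.02 with 16 bp, and 31.6% of the AP-1 matches lay inside the unwidened member. With the same settings SOX had 0.326 and 0.634, Forkhead 0.119 and 0.517, GATA 0.236 and 0.404 and the homeodomain sequence 0.400 and 0.446. Of members with the 5 lowest motifs, 21.3% (Forkhead) to 38.5% (OTX) held a match inside the unwidened member. The MEF2 site, found in 9 members in all, lay in 3 members and 19 windows of the compared set. Base composition moved with these ratios: compared members were 55.9% G or C and their windows 49.9%, and CpG stood at 3.11 and 2.13 per 100 bases. Its part in the ratios was not tested. Whole distal regions held the MEF2 site in 0.550% of cases and the AP-1 site in 7.61%.

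Ratios of the libraries taken alone, which include the members, fell on the same side of 1 for 31 of the 32 motifs, with RBPJ as the exception at 1.06 and 0.971. The MEIS sequence TGACAG, in 380 members and 376 windows and so counted as more frequent, was below 1 in both libraries (0.980 and 0.939). For CAGATG the ratio was 2.26 in replicate 1 and 2.84 in replicate 2, and for the RFX sequence 2.29 and 2.58. A second comparison, with the centres of the 249 distal regions that touch no footprint, gave other answers for several motifs. CAGATG had a ratio of 2.84, with 7 of the 249 centres holding it, and the RFX sequence had 1.43 (3 centres). EGR fell to 1.03 and Sp to 1.42, each with 1 centre. CAGCTG turned to 0.794 and TTGGCA to 0.821, each with 12 centres, whereas GATA turned to 1.87 and AP-1 to 2.16 on 1 centre each. These centres were 58.4% G or C, more than the members. Windows of 43 bp at the centres of the 4145 distal regions without a member, which can hold unshared footprints, were counted too. They held CAGATG in 8.90%, against 7.99% of all members, TTGGCA in 6.56% against 3.96% and CAGCTG in 6.88% against 3.83%. The RFX sequence lay in 1.59% against 1.72%, CAGGTG in 3.74% against 6.33% and the CTCF consensus in 1.28% against 12.2%. Windows beside members were not matched for place in the region, whose part in the ratios was not tested.

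**Figure D4:**
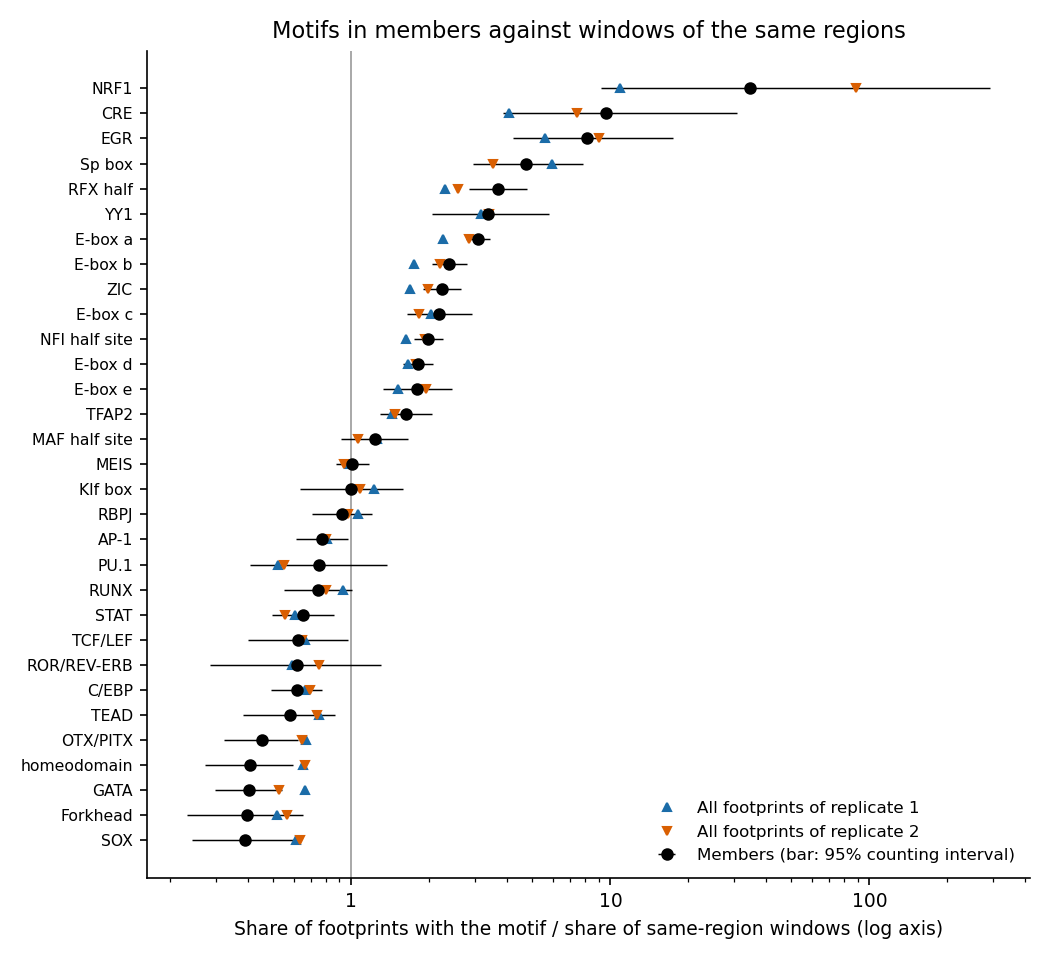
Ratio of the share of members with a motif to the share of same-region windows (log axis), for the 31 motifs other than CTCF in at least 50 members. Black points are members with 95% counting intervals, and triangles are all distal-region footprints of each library; E-box a to e are the E-boxes in the order of the text, from highest to lowest ratio. NRF1 is highest at 34.5 and SOX lowest at 0.387.

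Members lay in introns in 43.1% of cases, between genes in 49.8% and in exons in 7.09%. Distal regions themselves were split 44.3%, 48.6% and 7.09%, and regions without a member 45.1%, 47.1% and 7.72%, so members followed the regions. CTCF-like members and the others differed little, with 50% and 49.7% between genes. Members with CAGATG and no CTCF-like sequence lay in introns in 47.2%, those with GTTGCCA in 46.6% and those with TTGGCA in 48.5%. The median distance to the nearest start was 12.2 kb (quartiles 4.16 and 31.2), and 1903 members (6.6%) were more than 100 kb away. By chromosome, members numbered 3.4 per Mb on X and 17.3 per Mb on chromosome 11, and 1.22 and 1.39 per distal region. The gap lay mainly in the number of regions, and the CTCF-like share was between 36.8% (chromosome 13) and 43.7% (chromosome 19). Bases soft-masked as repeats made up at least 50% of the length in 7.85% of members and 6.86% of exact CTCF members.

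Transfer RNA genes, transcribed by RNA polymerase III, gave the most detailed pattern. They were examined after their clusters had appeared among the genes with most members. RefSeq tRNA genes numbered 403 on the chromosomes used, and 158 lay in 153 of the distal regions, because only starts of protein-coding and long noncoding RNA genes defined distance. These regions held 376 members (1.30% of all), a mean of 2.46 against 1.31 in other distal regions, and 49.7% held at least 3 against 10.8%. Median signal was 5.34 and 1.79, against 1.96 and 0.855 elsewhere. Along the gene's strand, members covered a mean of 67.6% of the genes at 40 to 20 bp before the first base and 62.1% at 20 bp before to the first base, but 8.89% at 20 to 40 bp inside. Cover was 77.6% at 40 to 60 bp and 69.6% at 60 to 80 bp, with a peak of 87.3% at position 61, and 5.13% at 80 to 100 bp. Farther out, members covered 24.2% at 100 to 80 bp before the gene and 7.09% at 120 to 140 bp. The libraries differed at both places. All footprints covered 43.7% in replicate 1 and 19.2% in replicate 2 at the former, and 35.1% and 6.65% at the latter.

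As background, TFIIIB binds just before such genes and TFIIIC binds the B box inside them. GGTTCGA, the core of the B box, occurred in 111 of the 158 genes, at a median first position of 52, and a member lay over it in 100 of them (90.1%). Of the 114 members that held GGTTCGA or its reverse complement, 102 were in these regions. All footprints of replicate 1 covered 85.1% of the genes at 40 to 60 bp and those of replicate 2 covered 58.0%. CTCF-like sequences were found in 15 of the 376 members (3.99%). The tRNA region with the highest mean signal rank held n-TTagt9, a threonine tRNA gene on the minus strand of chromosome 7, and its signals were 14.0 and 4.80. Its sequence is shown from 60 bases before to 30 bases after the gene, on the gene's strand, with the members in capitals.
n-TTagt9, chr7:35234740-35234903, minus strand: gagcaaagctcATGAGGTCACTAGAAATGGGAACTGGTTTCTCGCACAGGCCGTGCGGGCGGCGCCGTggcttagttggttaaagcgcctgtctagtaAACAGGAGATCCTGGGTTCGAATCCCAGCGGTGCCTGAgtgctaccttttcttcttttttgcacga
The first member covers the bases before the gene and its first letters, and the second covers the end of the gene with GGTTCGA. Copies of tRNA genes are alike: 39.6% of the members in these regions shared a run of 20 bases with another member, against 9.62% of all members, so reads could have been placed at the wrong copy.

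**Figure D5:**
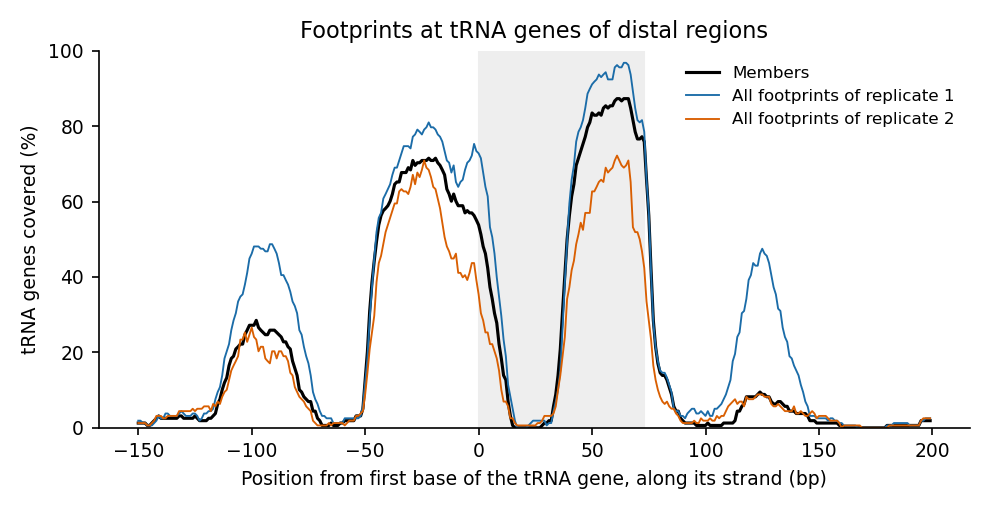
Percentage of the 158 tRNA genes of distal regions covered by a member (black) and by any footprint of each library, by position from the gene's first base along its strand; the grey band is the median gene length of 73 bp. Members peak at 87.3% at position 61 and have a second broad rise before the gene.

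Each member was assigned to the protein-coding gene with the nearest start, leaving long noncoding RNA genes aside. Olfr1324, an olfactory receptor gene on chromosome X, was nearest to 57 members in 26 regions, but had 0 within 50 kb. Of the 57, 56 lay inside Firre (chrX:50555744-50635321), a long noncoding RNA gene built of repeats, which was looked up after this count had been seen. The median spacing within a region was 53.5 bp over 31 neighbouring pairs, and 39 of the 57 shared a run of 20 bases with another of them. The CTCF consensus matched 2 of them with up to 2 mismatches and 23 with up to 3, against 40% and 49.7% of all members. Trim27 followed with 28 members, of which 21 lay in tRNA regions. Camta1 and Csmd1 had 24 each, Zfp516 23, Lsamp, Pik3c3 and Slc4a3 22 each, and Auts2 and Med13l 20 each. The region with most members, 11, was chr7:16399781-16400220, between genes and 0.690 kb from a start of Zc3h4, with signals of 10.5 and 3.34 and 1 CTCF-like member. Next came chrX:75673881-75674380 with 9 members, 4 of them CTCF-like. The regions chrX:150477861-150478680 and chrX:169997881-169998420, the latter in an intron of Mid1, held 8 each, and chr8:70629641-70630060, in an exon of Gdf15, held 7.

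Counted within 50 kb of gene bodies, protein-coding genes had a median of 2 members, and 6985 of 21938 had none. Gene length differed between lists, so counts are given per gene and per 100 kb (median over all genes 1.29). Activity-regulated genes, induced by neuronal firing, had a median of 5 per gene and 4.28 per 100 kb over 20 genes. Per1 was highest with 27, followed by Btg2 (13) and by Fosb and Junb (11 each), while Inhba, Nptx2 and Nr4a2 had 0. Circadian clock genes had a median of 5 and 3.51 per 100 kb, with Per1 (27), Nr1d1 (21) and Bhlhe40 (11) highest and none at 0. Of the 27 members near Per1, 18 lay in regions holding a tRNA gene. EGR, Sp and Klf factor genes had a median of 4 and 3.90 per 100 kb, led by Klf10 (9) and then Klf13 and Sp1 (7 each), with Egr2 and Klf6 at 0. The NFI genes, with a median length of 223 kb against 17.4 kb for all genes, had 14 per gene and 5.29 per 100 kb, with 19 at Nfib, 16 at Nfix, 12 at Nfia and 11 at Nfic.

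Cell type marker lists had medians from 1 to 4 per gene. Excitatory neuron markers had a median of 3 (1.42 per 100 kb), with Neurod2 at 8, Emx1 and Slc17a7 at 6, and Nrgn and Tbr1 at 0. Granule cell markers had a median of 2.50 (0.911 per 100 kb), led by Pdzd2 (13), Sema5a (11) and Zbtb20 (9), with Calb1 and Dsp at 0. Pyramidal cell markers had 3.50 (2.11 per 100 kb), led by Grik4 (12) and by Cacng5 and Rgs14 (9 each), with Bok, Elavl2, Nr3c2 and Pou3f1 at 0. Astrocyte markers had 3 (2.87 per 100 kb), with Aldh1l1 at 15 Slc1a3 at 11, Aldoc at 6 and Aqp4 at 0. Oligodendrocyte markers had 4 (2.69 per 100 kb), led by Mobp (9), Opalin (8), and Mbp and Myrf (7 each), with Olig2 and Ugt8a at 0. Their precursors' markers and those of microglia had 3 each (1.60 and 2.25 per 100 kb). The former were led by Bcas1 (8), Cspg4 (7) and Tnr (5). Microglia markers were led by Cx3cr1 (13) and Spi1 (8), and the next genes had 3. Interneuron markers had 2 (0.947 per 100 kb), with Pvalb and Slc32a1 at 7, Sox6 at 6 and Lhx6 and Npy at 0. Vessel markers had 1 (0.970 per 100 kb), with Pecam1 at 9, Vtn at 4, Cdh5 and Flt1 at 3, and Abcc9, Rgs5, Slco1a4 and Tek at 0. Hepatocyte genes, foreign to the tissue, had 3 (2.43 per 100 kb), with Apoa1, Fgb and Hnf4a at 4 and Serpina1a at 0, although none of the 8 had an open start.

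The makeup of the members also differed between lists. Members without a CTCF-like sequence made up 58.6% of the members counted near all genes, 77.4% near activity-regulated genes (96 of 124), 76.9% near clock genes (110 of 143) and 77.8% near EGR, Sp and Klf genes (49 of 63). The share was 43.6% near oligodendrocyte markers (24 of 55) and 50% near hepatocyte genes (10 of 20). These are not separate counts. Per1 stands in the activity and clock lists and supplies 25 of the members without a CTCF-like sequence in each, and most of its members lie in tRNA regions, where 3.99% were CTCF-like. Egr1 and Egr3 stand in the activity list and in that of EGR, Sp and Klf genes. Among genes of the factors whose motifs were searched, the RFX genes had a median of 2 (1.24 per 100 kb). Rfx2 stood at 15, Rfx7 at 6, Rfx4 at 3 and Rfx3, Rfx5 and Rfx6 at 0. MEF2 genes had 5.50 (3.26 per 100 kb), led by Mef2b at 8, Mef2d at 6 and Mef2c at 5. AP-1 genes had 3.50 (3.32 per 100 kb), with Fosb and Junb at 11, Fos at 8, and Atf3 and Fosl1 at 0. Neurogenic basic helix-loop-helix genes had 2 (1.12 per 100 kb), led by Tcf3 at 9, Neurod2 at 8 and Tcf4 at 5, with Olig2 and Olig3 at 0. Genes of CTCF and cohesin had 3 (1.18 per 100 kb), with Ctcf and Ctcfl at 8 each, Wapl at 5 and Rad21 and Stag2 at 0.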

How the data were processed

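DNase-seq was measured in 2 libraries of 1 group. The authors deposited, per library, peaks with a signal value, footprints and a cut-rate file, on mm10 per the labels. For the aligner, both callers and the signal's scale: not given in the sources used here. Every footprint's deposited p-value, an FDR, is 0.01, so footprints could not be ranked. The cut-rate files deposited by the authors list a p-value (FDR) up to 0.05 only.

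Shared regions joined overlapping peaks of the shorter peak list of each library. Genes came from GENCODE M21, tRNA genes and bases from RefSeq GRCm38.p6, whose chromosomes hold all file coordinates. Footprints were widened by 8 bp, and 44 motifs were counted with reverse complements. Members, motifs and 19 gene lists were chosen with earlier results of these data known. Named were the 12 highest and 5 lowest motif ratios among motifs in 50 members, 10 genes by nearest start, 5 regions by members, and per list the 3 highest genes and those with none. Alternatives changed the overlap, peak list, distance, widening, comparison windows and library. No test between conditions was possible, and no p-value was computed. Depth is unknown; precision is limited by having 2 libraries. The scripts were tested on simulated data. Analyses used pandas 2.3.3 and numpy 2.4.6 under Python 3.11.15, with scipy 1.17.1 for intervals and matplotlib 3.10.9 for figures.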

Additional observations from a re-analysis of the deposited data

How the results depend on the processing

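No paired analysis was possible because the study has only 1 group. The count of 28830 members lay between 19764 (the stronger 50% of distal regions) and 35198 (the longer peak files) over 6 other settings of the rule. Taking the footprints of either library alone, with or without a partner, gave 49590 to 66583 footprints, present in 93.7 to 97.4% of distal regions, with a median width of 10 to 13 bp, 49.2 to 49.3% between genes, 4.93 to 4.28 points more G or C than windows, a median of 9 to 10 near activity-regulated genes, and the CTCF consensus in 5.44 to 7.01% in place of 12.2%. With the longer peak files, 56.0% of distal regions held a member in place of 81.0%. More than 2000 bp from a start, 53.2% of members lay between genes in place of 49.8%, and within 10 kb activity-regulated genes had a median of 2. Members were 6.01 points richer in G or C than windows of the same regions and poorer by -3.76 points against centres of regions without footprints. Of 31 motifs, 15 to 19 were more frequent in members, depending on the setting, and these were not always the same motifs. CRE, NRF1 and SOX lay in 0 centres of regions without footprints, so they had no ratio there. Ratios of 15 motifs stayed on the same side of 1 in 126 of 131 recomputations. Without the comparison with those centres this was 118 of 119, most of which reused windows of the same regions. The exceptions were AP-1 at 1.02 with 16 bp of widening and at 2.16, GATA at 1.87, CAGCTG at 0.794 and TTGGCA at 0.821 against those centres. The cause of these changes was not tested.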
